A study of Mus musculus with 4 samples.

Results

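Glutathione S-transferases (GSTs) of the mu, theta and microsomal groups were examined in the liver of untreated CD-1 mice, an outbred stock, at 8 weeks of age. The 10 genes Gstm1 to Gstm4, Gstt1 to Gstt3 and Mgst1 to Mgst3 were taken by symbol from 21827 gene entries, and each of the 10 matched 1 entry. Male and female liver were compared, with RNA of 12 livers per sex joined into 2 pools of 6 livers, and a poly-A-enriched library that keeps the strand was sequenced from each of the 4 pools. The table gives 1 value per gene and sex, so the spread between the pools of a sex is not available for any value below, and the spread between single mice was lost in pooling.

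GSTs join the tripeptide glutathione to reactive, fat-soluble compounds, which makes them more soluble and marks them for export from the cell. Mu and theta enzymes are soluble dimers, whereas the microsomal enzymes belong to the MAPEG family of small membrane proteins, whose relatives make leukotrienes and prostaglandins. Hepatocytes are rich in GSTs, and the genes are known targets of the stress sensor NRF2 and of the receptors that sense foreign compounds.

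Most of these genes differed between the sexes, and the called mu and theta genes went opposite ways. Of the 4 mu genes, 3 were higher in male liver by 1.64-fold to 1.79-fold, and 2 of the 3 theta genes were higher in female liver, Gstt3 by 4.0-fold and Gstt1 by 1.42-fold, according to the authors' deposited table. Among the microsomal genes, the abundant Mgst1 was 1.44-fold higher in male liver and the scarce Mgst3 was 3.14-fold above the male level by the authors' deposited table. In all, 4 members were called higher in male liver, 3 higher in female liver, and 3 (Gstm2, Gstt2 and Mgst2) were not called. A gene was called where the authors' adjusted p for the sex difference was under 0.05. The background is 17.4% of 13762 compared genes, 7.21% with male liver higher and 10.2% with female liver higher. All 7 called members also passed an adjusted p under 0.01, which 10.2% of the compared genes did. The median absolute log2 ratio was 0.74 over the members against 0.27 over all compared genes.

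The mu genes resemble each other, which matters for reading their values one by one. Over the coding part of their transcripts (GENCODE vM21), Gstm1 and Gstm3 were 89.5% identical, and identity among 6 mu genes, Gstm6 and Gstm7 included, had a median of 82.6%. The lowest value, 67.4% for Gstm3 and Gstm4, rests on a shorter coding part of 555 bases in the Gstm4 transcript of the table, against 657 bases in the others, and the same pair was 79.8% identical without gaps. The longest run that Gstm1 and Gstm3 share at the same positions is shown with the same coding bases, 389 to 500, of the other mu genes of that coding length. Capitals mark bases that differ from Gstm1.
Gstm1: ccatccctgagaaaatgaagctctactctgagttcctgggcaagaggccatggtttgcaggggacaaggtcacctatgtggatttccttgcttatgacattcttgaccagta
Gstm3: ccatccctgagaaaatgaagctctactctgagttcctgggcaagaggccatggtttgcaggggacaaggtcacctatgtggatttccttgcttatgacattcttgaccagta
Gstm2: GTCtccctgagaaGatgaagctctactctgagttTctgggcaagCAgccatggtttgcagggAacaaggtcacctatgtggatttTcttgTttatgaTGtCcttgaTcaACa
Gstm6: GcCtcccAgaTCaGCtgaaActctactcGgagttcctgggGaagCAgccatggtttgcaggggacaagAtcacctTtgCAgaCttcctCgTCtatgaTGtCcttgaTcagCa
Gstm7: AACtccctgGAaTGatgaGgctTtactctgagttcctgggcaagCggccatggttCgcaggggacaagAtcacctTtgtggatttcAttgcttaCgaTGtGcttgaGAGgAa

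Over these 112 bases Gstm3 had 0 differences from Gstm1, Gstm2 had 16, Gstm7 had 22 and Gstm6 had 25. Of all 36-base words in the transcript, 35.3% for Gstm3, 30.9% for Gstm1 and 15.7% for Gstm2 also occurred in a transcript of another gene, pseudogenes included, but 2.03% for Gstm4. Reads from such stretches cannot be placed on sequence alone, and the sources used here give neither the read length nor how the authors' counting treated such reads. The same share was 15.9% for Gstm6, most often with Gstm3. The values of Gstm1, Gstm2, Gstm3 and Gstm6 as single genes are therefore uncertain, more than that of Gstm4. For Gstt3 the share was 26.6%, all of it with Gm20441, an annotated transcript on the same strand that overlaps Gstt3 and its neighbour Ddt. No word of Gstt1, Gstt2, Mgst1 or Mgst2 was shared, and 0.282% of those of Mgst3.

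The levels of the members covered a wide range. Values are log2 RPKM, reads per kilobase of transcript scaled to the sequencing depth, and can be compared between genes because they are per length. Mgst1, the membrane-bound enzyme that also reduces lipid peroxides, had a level of 12.04 in male and 11.49 in female liver, above 99.9% of all gene entries with a level in either sex. Gstm1, a principal mu enzyme of rodent liver, had 8.13 in male and 7.41 in female liver. Gstt1, which handles small halogenated compounds, followed with 6.69 in male and 7.12 in female liver. These 3 genes held the first 3 places in both sexes, and in both their counting intervals lay apart.

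Further down, the order differed between the sexes. In male liver Gstm3 (5.44) and Gstm4 (5.40) had levels whose exact 95% Poisson intervals overlapped, ahead of Gstt2 (5.10), and Gstt3 (4.22) overlapped with Gstm2 (4.02). In female liver Gstt3 (6.19) ranked 4 of the 10, ahead of Gstt2 (4.71), Gstm4 (4.68) and Gstm3 (4.63), whose neighbouring intervals overlapped, and of Gstm2 (4.04). Mgst3 ranked 9 in both sexes, with 1.97 in male and 3.50 in female liver. Mgst2, which can make leukotriene C4 in other tissues, was last with -0.14 and -1.53. It was the single member under a log2 RPKM of 1 in both sexes. These intervals cover counting error only, and rest on implied reads, the number of reads that a level stands for given the transcript length and the depth implied by the floor of the scale.

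**Figure D1:**
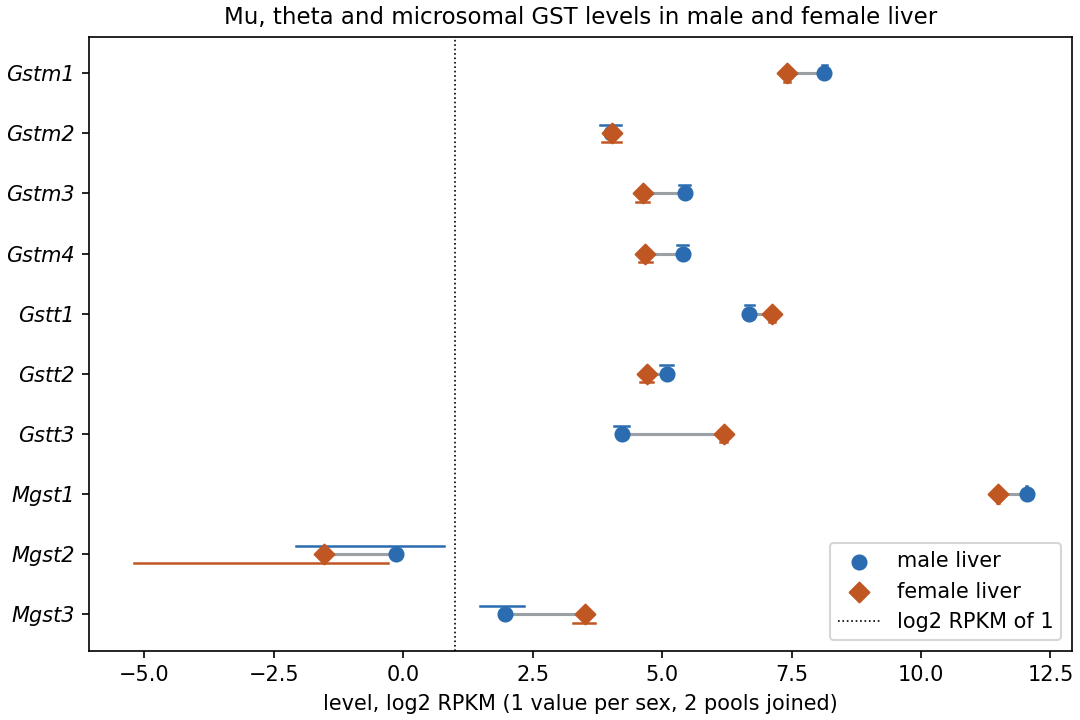
Level of each member in log2 RPKM (x axis) in male (blue circles) and female liver (orange diamonds), 1 value per sex with 2 pools joined; thin lines are exact 95% Poisson intervals of the implied reads and the dotted line is a log2 RPKM of 1. Mgst1 lies far to the right at 12.04 and 11.49, and Gstt3 and Mgst3 have the longest female-ward gaps among the well-measured genes.

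Summed over the 10 members, the level was 4751 RPKM in male and 3359 RPKM in female liver, of which Mgst1 alone made up 88.6% and 85.5%. Without Mgst1 the sums were 542.9 and 487.1 RPKM, a male-over-female ratio of 1.11. The sum of the 4 mu members was 1.61-fold higher in male liver (382.2 against 236.9 RPKM). It leaves out Gstm5, Gstm6 and Gstm7, which with Gstt4 summed to 90.7 RPKM in male and 79.3 RPKM in female liver. The theta sum was 1.53-fold higher in female liver (238.5 against 155.9 RPKM). Within the theta group Gstt3 made up 12.0% of the sum in male and 30.7% in female liver, while Gstt2 made up 21.9% and 11%. Within the mu group Gstm1 made up 73.4% in male and 71.8% in female liver, Gstm3 11.3% and 10.4%, and Gstm4 11% and 10.8%. The share of the uncalled Gstm2 was 4.24% in male and 6.93% in female liver. These sums are plain levels with no test.

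Each mu gene lies on chromosome 3 in mm9. Gstm3 (chr3:107766614-107772092, minus strand) had an implied 637 reads in male and 476 in female liver, with an added read taken off. It was 1.79-fold above the female level by the authors' deposited table (log2 ratio 0.84, adjusted p = 5.22e-05), and counting error alone allows 1.55-fold to 1.98-fold. Here and below, such intervals are of the ratio of implied reads scaled by depth, without the authors' normalization. Gstm4 (chr3:107843326-107847777, minus strand) had 693 and 550 implied reads, and was 1.70-fold above the female level by the authors' deposited table (log2 ratio 0.77, adjusted p = 0.000167). Gstm1 (chr3:107815168-107820891, minus strand) had 4064 and 3228 implied reads, and was 1.64-fold above the female level by the authors' deposited table (log2 ratio 0.71, adjusted p = 0.000174). These 3 ratios are close to each other, and the counting intervals of all 3 overlap (1.47 to 1.85 for Gstm4, 1.57 to 1.73 for Gstm1).

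Gstm2 (chr3:107784620-107789354, minus strand) lies between Gstm3 and Gstm1 and was not called. Its level was 4.02 in male and 4.04 in female liver on the log2 RPKM scale, from 193 and 256 implied reads. The authors' deposited table gives it no difference past the limit (log2 ratio -0.06, adjusted p = 0.79). Its counting interval, 0.815-fold to 1.195-fold male over female, lies apart from those of Gstm1, Gstm3 and Gstm4. A test of the difference between these genes' ratios over pools was not possible.

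The theta genes lie on chromosome 10 and had the largest called difference. Gstt3 (chr10:75236867-75244159, minus strand) had an implied 393 reads in male and 2022 in female liver. It was 4.0-fold above the male level by the authors' deposited table (log2 ratio -2.0, adjusted p = 4.84e-22), and counting error alone allows 3.53-fold to 4.39-fold. Of the compared genes that reached a log2 RPKM of 1 in male or female liver, 1.58% had a ratio as large in either direction. Gstt1 (chr10:75246558-75261329, minus strand) had 1200 and 2125 implied reads, and was 1.42-fold above the male level by the authors' deposited table (log2 ratio -0.50, adjusted p = 0.0098). The ratio of its implied reads was 1.35-fold, for which counting error alone allows 1.26-fold to 1.45-fold.

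Gstt2 (chr10:75294590-75297626, minus strand), whose product is known to accept sulfate esters and peroxides, had 526 implied reads in each sex, which at the lower depth of male liver is a higher male level. It was not called from the authors' deposited table (1.22-fold higher in male liver, log2 ratio 0.29, adjusted p = 0.182). Its plain level difference was 0.39 on the log2 scale, and the counting interval of 1.16-fold to 1.48-fold lies above 1. That interval leaves out the spread between pools, so it does not replace the authors' test.

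The 3 microsomal genes lie on different chromosomes or far apart. Mgst1 (chr6:138089058-138105273, plus strand) had the deepest coverage of the members, with 55208 implied reads in male and 49339 in female liver. It was 1.44-fold above the female level by the authors' deposited table (log2 ratio 0.53, adjusted p = 0.00467). The ratio of implied reads, scaled by depth and without the authors' normalization, was 1.47, with a counting interval of 1.45-fold to 1.48-fold, so the scaling moves this gene by about as much as counting error. The adjusted p of Mgst1 is larger than that of Mgst3 despite far more reads. Mgst3 (chr1:169302515-169323928, minus strand) had 47 and 182 implied reads, and was 3.14-fold above the male level by the authors' deposited table (log2 ratio -1.65, adjusted p = 2e-06). Its counting interval is wider, 2.14-fold to 4.17-fold.

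Mgst2 (chr3:51465115-51486597, plus strand) shows what so few reads can give. The authors' deposited table lists it as 3.24-fold higher in male liver, yet not called (log2 ratio 1.695, adjusted p = 0.225). Its levels stand for 5 implied reads in male and 2 in female liver, a ratio of 3.27 per depth with a counting interval of 0.536-fold to 34.4-fold. No sex difference of Mgst2 was detected, and the interval includes 1.

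**Figure D2:**
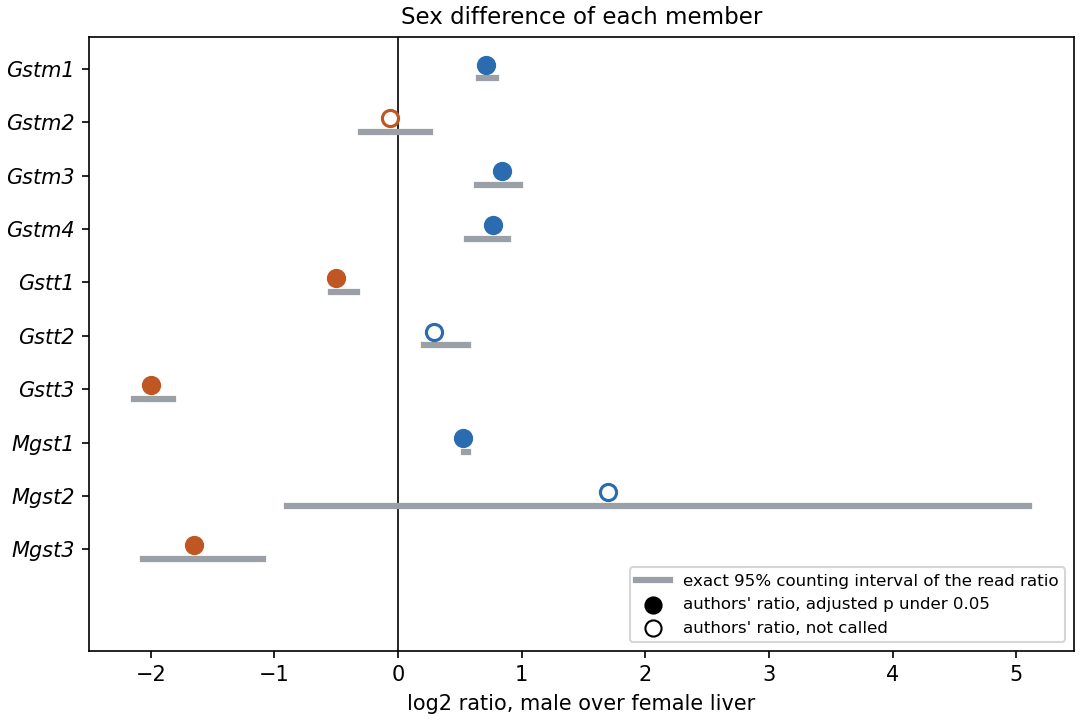
Log2 ratio of male over female liver for each member (x axis); circles are the authors' ratios, filled where the adjusted p was under 0.05 (blue male higher, orange female higher), and grey bars are exact 95% counting intervals of the ratio of implied reads. Gstm1, Gstm3 and Gstm4 sit together between 0.71 and 0.84, Gstt3 is farthest left at -2.0, and the bar of Mgst2 spans 0.

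**Figure D3:**
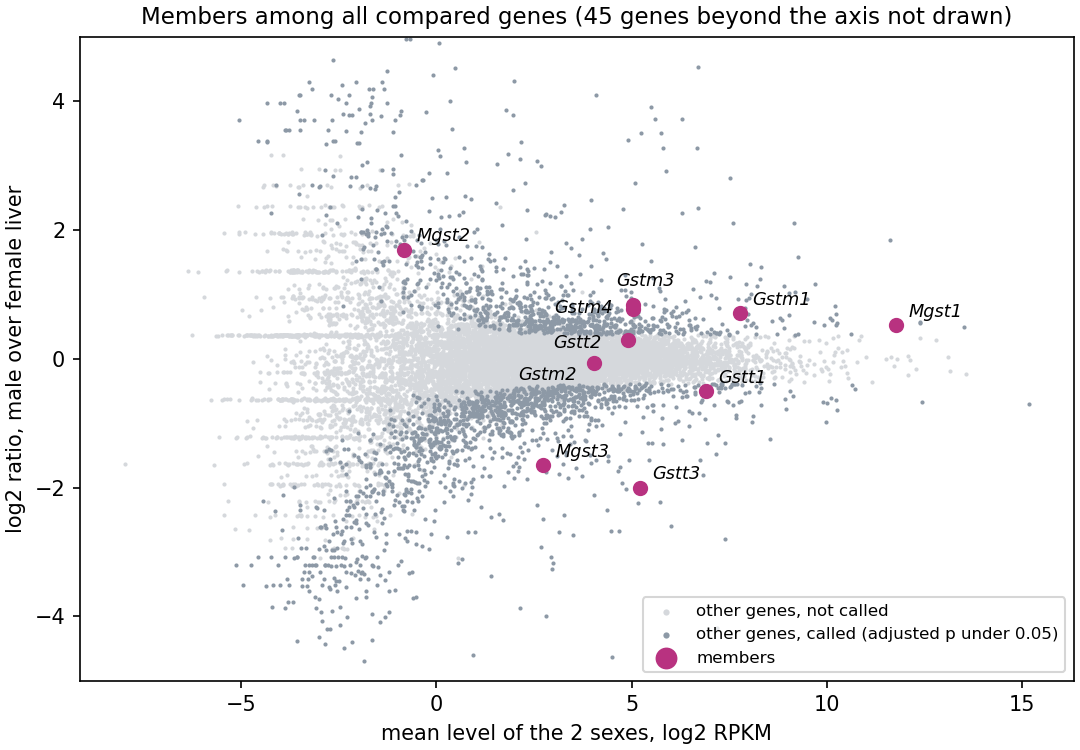
Log2 ratio of male over female liver (y axis) against the mean log2 RPKM of the sexes (x axis) for 13758 compared genes with a level (grey, darker where called) and the 10 members (purple); 45 genes lie beyond the y axis. Gstt3 and Mgst3 lie below the band of genes that were not called, and Mgst1 is among the most abundant genes of the table.

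Along the chromosome, the mu and theta clusters hold both called and uncalled genes. The 7 mu genes of the table span 149.0 kb (chr3:107698818-107847777) in the order Gstm5, Gstm7, Gstm6, Gstm3, Gstm2, Gstm1 and Gstm4. The called Gstm3 and Gstm1 flank Gstm2. Beyond Gstm3, Gstm6 was 1.74-fold above the female level by the authors' deposited table (adjusted p = 0.000158). Gstm7 (1.23-fold higher in female liver, adjusted p = 0.134) and Gstm5 (1.05-fold higher in female liver, adjusted p = 0.924) at the other end were not called from the authors' deposited table. Just past Gstm4, Ampd2, which encodes an AMP deaminase, was 1.67-fold above the male level by the authors' deposited table (adjusted p = 0.000453).

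The 4 theta genes span 60.8 kb (chr10:75236867-75297626) in the order Gstt3, Gstt1, Gstt4 and Gstt2, and their log2 ratios were -2.0, -0.50, none and 0.29. Gstt4 was at the floor in each sex, the value that a gene of its length has with no reads. Ddt, which encodes D-dopachrome tautomerase and lies next to Gstt3, was 1.31-fold above the male level by the authors' deposited table (adjusted p = 0.0452), which the authors class as independent of sex at their stricter limit. On the far side, Mif was not called from the authors' deposited table (1.35-fold higher in male liver, adjusted p = 0.261). Next to Mgst1, the peptide transporter gene Slc15a5 was 11.91-fold above the female level by the authors' deposited table (adjusted p = 6.77e-19). The neighbours of Mgst3, Aldh9a1 (adjusted p = 0.672) and Tmco1 (adjusted p = 0.537), were not called from the authors' deposited table.

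**Figure D4:**
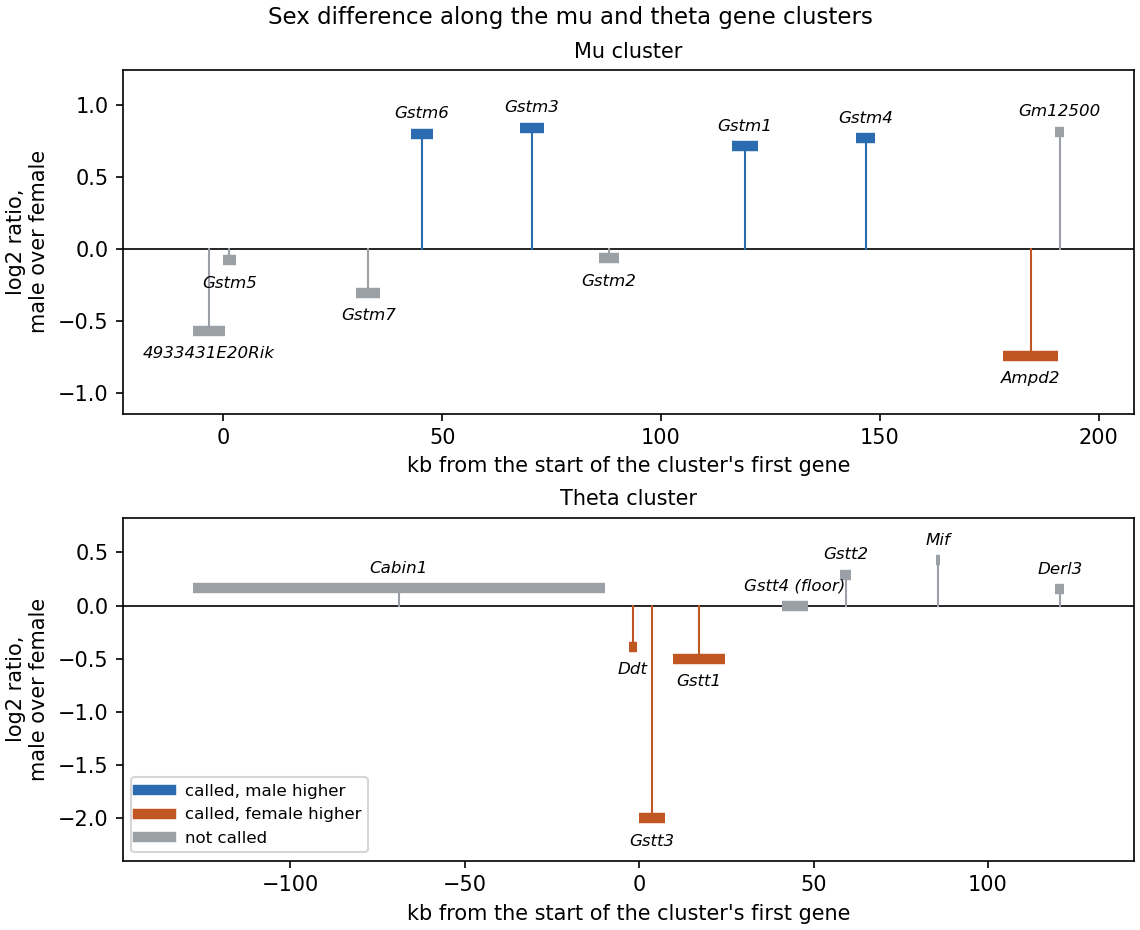
Log2 ratio of male over female liver (y axis) of the genes of the mu (upper) and theta cluster (lower) and their neighbours, drawn at their position in kb from the start of the cluster's first gene (x axis); bars lie at each gene's ratio and span its length, blue bars were called male higher, orange bars female higher, grey bars were not called, and other neighbours at the floor are not drawn. Gstm6, Gstm3, Gstm1 and Gstm4 rise to 0.71 or more around Gstm2 at -0.06, and Gstt3 reaches -2.0 beside Gstt1 at -0.50.

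The promoters of the members were read from RefSeq windows of 250 bases before to 50 bases after the start (build GRCm38.p6), which 9 of the 10 members had. The last 150 bases before the start are shown for Gstm1, the most abundant mu gene, and for the female-higher Gstt3 and Mgst3, the members with the largest called ratios. They lie at chr3:108017974-108018123, chr10:75781415-75781564 and chr1:167393842-167393991, all on the minus strand, and are printed 5′ to 3′ in lower case because neither motif below occurs in them.
Gstm1: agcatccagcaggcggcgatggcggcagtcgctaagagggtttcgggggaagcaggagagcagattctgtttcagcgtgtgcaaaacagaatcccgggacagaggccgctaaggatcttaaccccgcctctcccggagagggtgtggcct
Gstt3: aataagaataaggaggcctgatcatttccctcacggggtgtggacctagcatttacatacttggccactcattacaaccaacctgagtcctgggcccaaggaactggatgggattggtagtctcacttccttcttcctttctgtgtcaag
Mgst3: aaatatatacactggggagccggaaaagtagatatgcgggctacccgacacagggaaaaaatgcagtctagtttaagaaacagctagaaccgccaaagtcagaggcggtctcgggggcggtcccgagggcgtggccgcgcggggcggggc

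The core of the antioxidant response element, TGACNNNGC on either strand, occurred in the window of 1 of the 9 members, Mgst1, at bases -56 to -48 from the start that its window uses. It occurred in 12.4% of all 32851 windows of the same length. The core of the STAT5 element, TTCNNNGAA, occurred in the window of Mgst2 alone of the 9, after the start, and in 8.30% of all windows. Between mu promoters (the 250 bases before the start, Gstm6 and Gstm7 included), aligned identity was 40.6% to 52.0%, far below that of the coding parts. The windows of Gstm2, Gstm3, Gstt1 and Mgst1 do not start at the annotated start of the transcript in the table. That of Gstt1 lies 853 bases away and that of Mgst1 211 bases away. These counts describe letters in short windows only.

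The rest of the glutathione pathway was described with lists drawn from general knowledge. Of 11 compared genes of the other cytosolic and mitochondrial GSTs, 3 were higher in male liver and 0 in female liver (median log2 ratio -0.04, against -0.02 for all compared genes). These were Gstp1 (11.40-fold), Gsta1 (2.88-fold) and Gsta2 (2.64-fold), by the authors' deposited table. Gsta1 and Gsta2, and Gstp1 and Gstp2, are known as close relatives, and how far they share reads was not measured here. Among 3 further MAPEG genes, Ptges, the inducible prostaglandin E synthase gene, was 4.15-fold above the female level by the authors' deposited table (adjusted p = 0.00293), from 34 and 10 implied reads. Alox5ap and Ltc4s, which serve leukotriene synthesis, were not called (adjusted p = 0.39 and 1 by the authors' deposited table).

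The counts for genes that supply glutathione and process its conjugates stand beside the 17.4% of all compared genes that were called. In glutathione synthesis and recycling, 1 of 8 was called, Oplah, which recycles 5-oxoproline, at 1.47-fold above the female level by the authors' deposited table (adjusted p = 0.00718). The median log2 ratio of that list was 0.26, and the subunits of the rate-limiting ligase, Gclc (1.28-fold higher in male liver, adjusted p = 0.0567) and Gclm (1.26-fold, adjusted p = 0.0786), were not called from the authors' deposited table. In the mercapturate pathway, which trims conjugates for excretion, 2 of 9 were male-higher and 1 female-higher. Nat8, the acetyltransferase gene of its last step, was 9.02-fold higher in male liver (adjusted p = 7.83e-18) and the aminopeptidase gene Lap3 1.54-fold (adjusted p = 0.00113) by the authors' deposited table. Acy1, which removes the acetyl group again, was 1.54-fold above the male level by the authors' deposited table (adjusted p = 0.00362). Of 8 export pump genes, Abcg2 alone was called, 2.47-fold above the female level by the authors' deposited table (adjusted p = 9.72e-11).

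Among 9 glutathione peroxidase and glyoxalase genes, 2 were male-higher and 1 female-higher. Glo1, which detoxifies methylglyoxal, was 1.55-fold higher in male liver (adjusted p = 0.000758) and Gpx7 4.31-fold higher in female liver (adjusted p = 7.26e-06) by the authors' deposited table. Gpx6, listed as 13.93-fold above the female level by the authors' deposited table (adjusted p = 0.0076), rests on 12 and 1 implied reads, and counting error alone allows 2.33-fold to 672-fold. Of 13 regulators known to act on GST genes or on liver sex differences, 3 were male-higher and 4 female-higher. Because the list includes genes known for liver sex differences, its count is not read against the 17.4% of all compared genes. Cux2, a female-specific repressor, was 36.32-fold higher in female liver (adjusted p = 2.89e-36) and Bcl6, a male-biased repressor, 2.20-fold higher in male liver (adjusted p = 2.11e-07) by the authors' deposited table. Onecut1 was 1.54-fold higher in male liver (adjusted p = 0.00125) and Stat5a 1.46-fold higher in female liver (adjusted p = 0.0406) by the authors' deposited table. Ppara was 1.39-fold higher in male liver by the authors' deposited table (adjusted p = 0.0141). Higher in female liver by the same source were Ahr (1.41-fold, adjusted p = 0.0147) and Nr1i3 (1.35-fold, adjusted p = 0.0248). The authors class Stat5a, Ppara, Ahr and Nr1i3 as independent of sex at their stricter limit. Nfe2l2, the gene of NRF2, was not called (log2 ratio -0.15, adjusted p = 0.441 by the authors' deposited table).

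**Figure D5:**
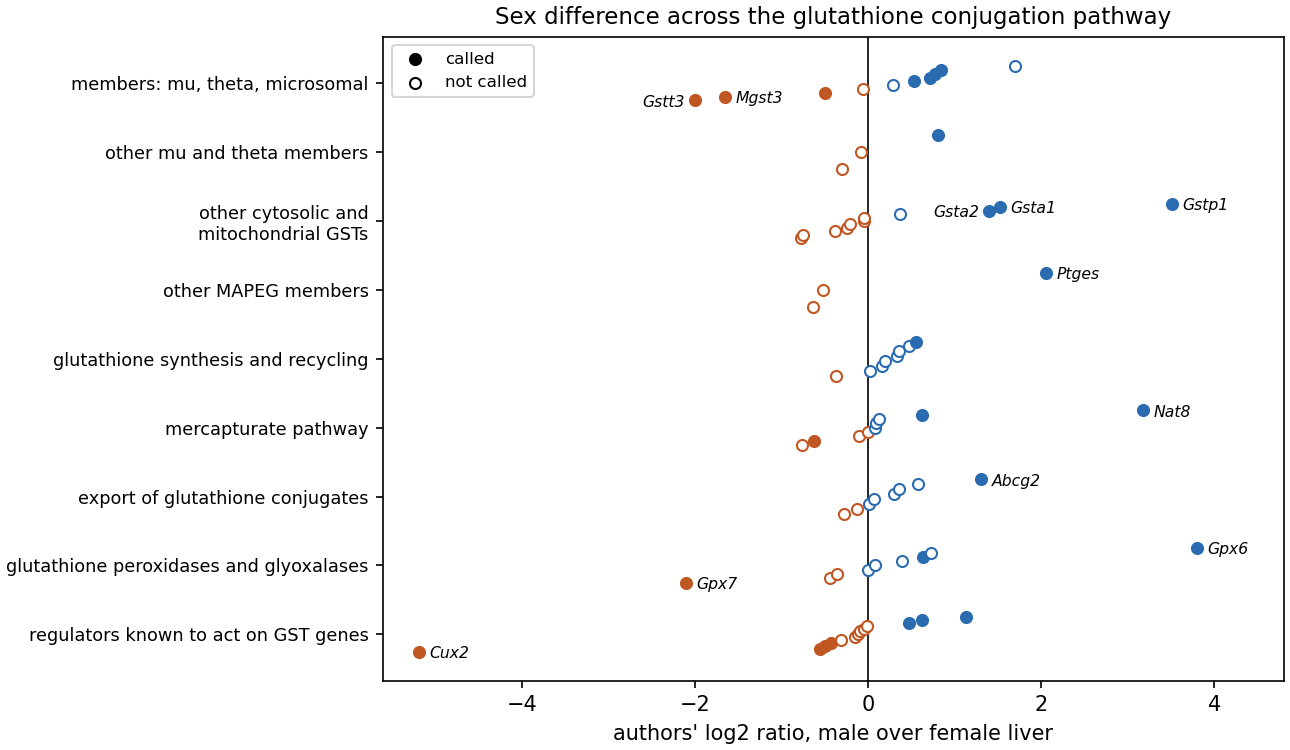
Authors' log2 ratio of male over female liver (x axis) for the compared genes of each list (rows), members first; filled circles were called at an adjusted p under 0.05, open circles were not, blue is male higher and orange female higher. The members hold 7 filled circles of 10, and the lists other than the regulators hold from 1 of 8 to 1 of 3, beside 17.4% of all compared genes. The regulators hold 7 of 13. Some of them were listed for a known part in liver sex differences, so this count is not read against the 17.4%.

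The genes whose levels in both sexes were most like those of the 3 called members with the largest ratios were found by distance over 2 values, log2 RPKM in male and in female liver. For Gstm3 these were Gstm6 (distance 0.034) and Gstm4 (0.061), both in the mu cluster, and Gstm3 and Gstm6 share sequence words as given above. For Gstt3 they were Acnat2 (0.105) and the organic anion transporter gene Slco1a4 (0.461). For Mgst3 they were Gypc (0.147) and Slc13a3 (0.177). With 2 values a short distance describes level and ratio and nothing more.

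In RNA of whole liver, a change in the share of a cell type cannot be told apart from a change in RNA per cell. Summed marker levels were 3670 RPKM in male and 3720 RPKM in female liver for pericentral hepatocytes, where many GSTs are known to be high. Cyp2e1 held most of that sum (3270 and 3180 RPKM), and without it the sums were 400.1 and 539.4 RPKM. Of the 8 pericentral markers 6 were female-higher (Oat, Lgr5, Slc1a2, Axin2, Rhbg and Tbx3), 5 of them at an adjusted p under 0.01. Periportal sums were 2659 and 2413 RPKM, with Cyp2f2 male-higher and Ass1 and Gls2 female-higher of 8, and without Cyp2f2 the sums were 1675 and 1890 RPKM. Hepatocyte markers summed to 43983 and 60518 RPKM, with Apoa1 male-higher and Alb female-higher of 6, and without Alb to 14958 and 13596 RPKM. Of 8 Kupffer cell markers (152 and 191 RPKM) 4 were female-higher (Marco, Clec4f, Vsig4 and Timd4), but 1, Marco, at an adjusted p under 0.01. Of 7 stellate cell markers (140 and 185 RPKM) 4 were female-higher (Lrat, Pdgfrb, Dcn and Colec11), 3 of them at that limit. Of 8 sinusoidal endothelium markers (117 and 132 RPKM) Pecam1 was female-higher. Cholangiocyte markers summed to 46.6 and 31.8 RPKM, with Spp1 male-higher and Sox9 female-higher of 6 compared, and without Spp1 to 2.64 and 3.91 RPKM. Of 3 erythroid markers (171 and 96.1 RPKM) Alas2 was male-higher, at 86.2 and 13.4 RPKM. The globin genes Hbb-b1 (73.7 and 73.8 RPKM) and Hba-a1 (10.9 and 8.83 RPKM) were not called. Lymphocyte (2.30 and 1.88 RPKM), neutrophil (5.65 and 8.80 RPKM) and adipocyte markers (0.639 and 0.519 RPKM, Plin1 at the floor in both sexes) had no called gene. The part of these differences in the values of the GST genes was not tested.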

How the data were processed

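Poly-A-enriched, strand-specific liver RNA was sequenced, per the labels' protocols. The submitters' processing notes name Bowtie, edgeR and build mm9, without versions or roles. Per the file headers, the authors deposited log2 RPKM per sex, a normalized log2 ratio (male over female), the linear ratio, a signed fold change (a score that is negative where female liver is higher) and an adjusted p-value. The sources used here do not name the adjustment. No value per pool was used, so no gene was tested anew. The fit planned for counts per pool could not be run, and its fallback, the authors' adjusted p under 0.05, was used. The authors' own classes by sex hold no gene with an adjusted p of 0.01 or more. Genes with no reads in either sex, at the floor of the scale, all carry an adjusted p of 0.026 with a ratio of 1 and were not compared.

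Of 21827 entries, 13762 could be compared between the sexes. At the floor in both sexes were 6590, 15 had no level and a ratio of 1, and 1460 were above the floor in 1 sex with the ratio set to 1. The floor in 1050 single-exon olfactory receptor genes implies 11241814 reads for male and 14719686 for female liver, 1.31 times as many. Implied reads are level times GENCODE vM21 transcript length times depth, less the 1 read that the authors' values appear to include. Over 390 genes with few reads, taking it off brought the read ratio within 0.025 of the authors' log2 ratio (median), against 0.149 without. Lengths matched within 2% for 74.2% of 4668 floor genes, so reads are approximate. Intervals (exact Clopper-Pearson for ratios, exact Poisson for levels, 95%) cover counting error only. The code for reads and intervals was tested on simulated data. Coding parts and promoters were aligned with Biopython 1.88, and the planned comparison of proteins was made on coding bases.

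The 10 members and all lists were chosen with earlier results of these data known. All members are named, and from each list the called genes with the largest ratios (at most 4), or, with fewer than 2 called, the 2 most abundant genes at most. Of the regulators, every called gene is named. From the marker lists the called genes, those at the floor and some uncalled genes that weigh on a sum are named. Genes next to the members, and further list genes given as not called, were chosen after their values were seen. Gsta5, Gstp3, Glul and Ly6g were not analysed here. Alternatives were other thresholds, levels and ratios.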

Additional observations from a re-analysis of the deposited data

How the results depend on the processing

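At an adjusted p under 0.01, and with members at a log2 RPKM of at least 1 alone, 4 members were called higher in male and 3 in female liver, as in the main comparison. At an adjusted p under 0.001 the counts were 3 and 2, without Mgst1 and Gstt1. No member changed direction when the plain difference of log2 RPKM replaced the normalized ratio (shifts of -0.307 to 0.118 on the log2 scale, the largest for Mgst2), or when the median of all compared genes (-0.024) or of liver-expressed ones (-0.004) was taken off. The median over the members was 0.41, 0.47 by the plain difference and 0.29 without Mgst2. The share of compared genes called was 10.2% at an adjusted p under 0.01. Among the pathway lists, the other MAPEG genes had 0 called with a log2 RPKM of at least 1, where no gene was left to compare, and the regulators had 3 called at an adjusted p under 0.01. Of 58 alternative values, 55 kept their direction and side or stayed within 1.5 times the main count.

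No paired analysis was possible because the table holds 1 value per sex and the labels give no number that pairs pools. For the same reason no pool was left out, and tests on counts (edgeR, DESeq2) or RPKM per pool were not run. Depth limits Mgst2 most, with 5 and 2 implied reads.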
